A study of Homo sapiens with 90 samples.

Results

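The carnitine shuttle is the set of enzymes and carriers that brings long-chain fatty acids into mitochondria for oxidation. The 8 genes listed for it were given by symbol (CPT1A, CPT1B, CPT1C, CPT2, SLC25A20, CRAT, CROT and SLC22A5), and every probe set annotated to exactly 1 of these symbols was taken. This gave 14 probe sets of 7 genes, out of 54613 probe sets tested and 19774 genes with a probe set of their own. CPT1A had 4 probe sets, CROT had 3, CPT2 and CRAT had 2 each, and CPT1C, SLC25A20 and SLC22A5 had 1 each. CPT1B had 0, because both probe sets that name it (210069_PM_at and 210070_PM_s_at) also name the CHKB-CPT1B readthrough gene. CPT1A was selected on its level in cells given 10 µM imazalil, so all values of that concentration are given as a description, with no test.

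The cells were A673, an established Ewing sarcoma line that carries the EWSR1-FLI1 fusion. They were exposed in wells of 26000 cells for 24 h to fenbuconazole (a triazole fungicide), imazalil (an imidazole fungicide) or 2,4-D (a chlorophenoxy herbicide) at 9 concentrations (10 µM, and stepwise down through 3, 1, 0.3, 0.1, 0.03, 0.01 and 0.003 to 0.001 µM), and all groups, controls included, carried 0.2% DMSO. RNA was read on Affymetrix HT HG-U133+ PM arrays, with 3 arrays per group and 30 columns per chemical. Each chemical's columns had been normalized on their own, so a level is compared only within the set of 1 chemical. The study used these exposures to ask how well the expression of the whole genome can be predicted from a smaller set of measured genes.

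The labels describe the DMSO controls as common to the chemicals. After each probe set was centred on its set's mean, a DMSO column of the 2,4-D set and its namesake in the imazalil set correlated at 0.867 to 0.878 across probe sets, while fenbuconazole's DMSO columns correlated with their namesakes in the other sets at 0.105 to 0.198. Imazalil and 2,4-D were therefore taken to share their 3 DMSO arrays, which left 87 distinct arrays of 90 columns. Of the Ewing sarcoma markers, 7 were measured and all 7 lay between the 80.9th and the 99.7th percentile of all probe sets in every set, with CD99 at the 99.6th percentile in the imazalil set. Of 5 hepatocyte markers 1 was above the median, and ALB lay at the 24.4th percentile in the imazalil set. Of 6 luminal breast markers 3 or 4 were above the median, with KRT18 at the 98th percentile and PGR at the 10th in the imazalil set.

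As background, long-chain fatty acids are first joined to coenzyme A and then, at the outer mitochondrial membrane, passed to carnitine by carnitine palmitoyltransferase 1. CPT1A is the liver form of that enzyme and is widely expressed, CPT1B is the muscle form and CPT1C the brain form. The step is blocked by malonyl-CoA, the first committed intermediate of fatty acid synthesis, and CPT1A transcription is known to respond to the fatty-acid-sensing nuclear receptor PPAR-alpha. SLC25A20 carries acylcarnitine across the inner membrane in exchange for free carnitine, and CPT2 returns the acyl group to coenzyme A inside. CRAT and CROT do the same kind of transfer for short and for medium chains, CROT in peroxisomes, and SLC22A5 (OCTN2) takes carnitine into the cell.

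The promoters of CPT1A and of SLC25A20 are shown because these were the 2 members whose unadjusted p fell under 0.05 in the imazalil trend described further on. Each window runs from 250 bases before to 50 after the RefSeq gene start and is written 5′ to 3′ on the minus strand of GRCh38.p14, at chr11:68844228-68844527 for CPT1A and at chr3:48898833-48899132 for SLC25A20. Capitals mark GGGCGG, the core of the GC box, on either strand.
CPT1A: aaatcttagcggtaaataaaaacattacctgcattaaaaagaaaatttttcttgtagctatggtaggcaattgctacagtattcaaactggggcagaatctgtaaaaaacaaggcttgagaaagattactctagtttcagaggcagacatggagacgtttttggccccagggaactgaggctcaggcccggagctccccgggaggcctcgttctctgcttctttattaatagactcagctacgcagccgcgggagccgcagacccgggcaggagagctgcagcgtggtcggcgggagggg
SLC25A20: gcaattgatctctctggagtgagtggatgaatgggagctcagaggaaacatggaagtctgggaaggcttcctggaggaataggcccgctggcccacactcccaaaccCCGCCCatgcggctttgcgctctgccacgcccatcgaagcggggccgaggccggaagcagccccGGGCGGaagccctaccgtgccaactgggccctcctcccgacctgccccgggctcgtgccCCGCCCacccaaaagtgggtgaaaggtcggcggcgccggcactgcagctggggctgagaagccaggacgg

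The CPT1A window held 0 copies of GGGCGG and the SLC25A20 window held 3. The windows of CPT2 and SLC22A5 held 4 each, that of CROT held 3, and the 3 windows of CPT1C held 1, 0 and 2. Of all 35116 promoter windows, 45% held at least 1. The letters AGGTCA, the half-site bound by PPAR and other nuclear receptors, were in none of the 8 windows available for 6 members (CPT1C has 3 starts) and in 13.8% of all windows. CACGTG, the E-box, was in none of the 8 and in 7.26% of all windows. The letters CCAAT had 2 copies in the CROT window and 2 in a CPT1C window, and were in 34.6% of all windows. All motifs were searched on both strands, and their absence says only that these letters are not in these 300 bases.

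CPT1A was well expressed in A673 cells. Its brightest probe set, 203633_PM_at, lay at the 90.2nd percentile of all probe sets in the fenbuconazole and imazalil sets and at the 89.1st in the 2,4-D set. The other 3 CPT1A probe sets lay between the 54.6th and the 75.7th percentile. Among the other members, CPT2 (204263_PM_s_at) and CRAT (209522_PM_s_at), each on its brightest probe set, were at or above the 78.3rd percentile in every set. CROT on its brightest probe set, 204573_PM_at, lay between the 67.3rd and 68.1st percentile. Its probe set 243283_PM_at was dim, between the 15.6th and 22.6th percentile. A percentile says how bright a probe set is on the array and does not order the amounts of different transcripts.

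In the imazalil set the 203633_PM_at level of CPT1A was 8.53, 8.47 and 8.61 on the log2 scale in the DMSO arrays, listed by replicate number. It was 8.53, 8.68 and 8.42 at 0.3 µM, 8.75, 8.92 and 8.64 at 1 µM, 8.90, 8.99 and 8.76 at 3 µM and 9.06, 9.38 and 9.13 at 10 µM. The arrays at 1, 3 and 10 µM all lay above every DMSO array. The share of all probe sets doing so was computed only for 10 µM (4.31%). From 0.001 to 0.3 µM the group means lay between 8.38 and 8.55, around the DMSO mean of 8.54 ± 0.07 (SD, n = 3). In order of group mean, 10 µM (9.19 ± 0.17) came first, then 3 µM (8.89 ± 0.12) and 1 µM (8.77 ± 0.14), and the arrays of 1 and 3 µM overlapped while those of 10 µM did not overlap with either.

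**Figure D1:**
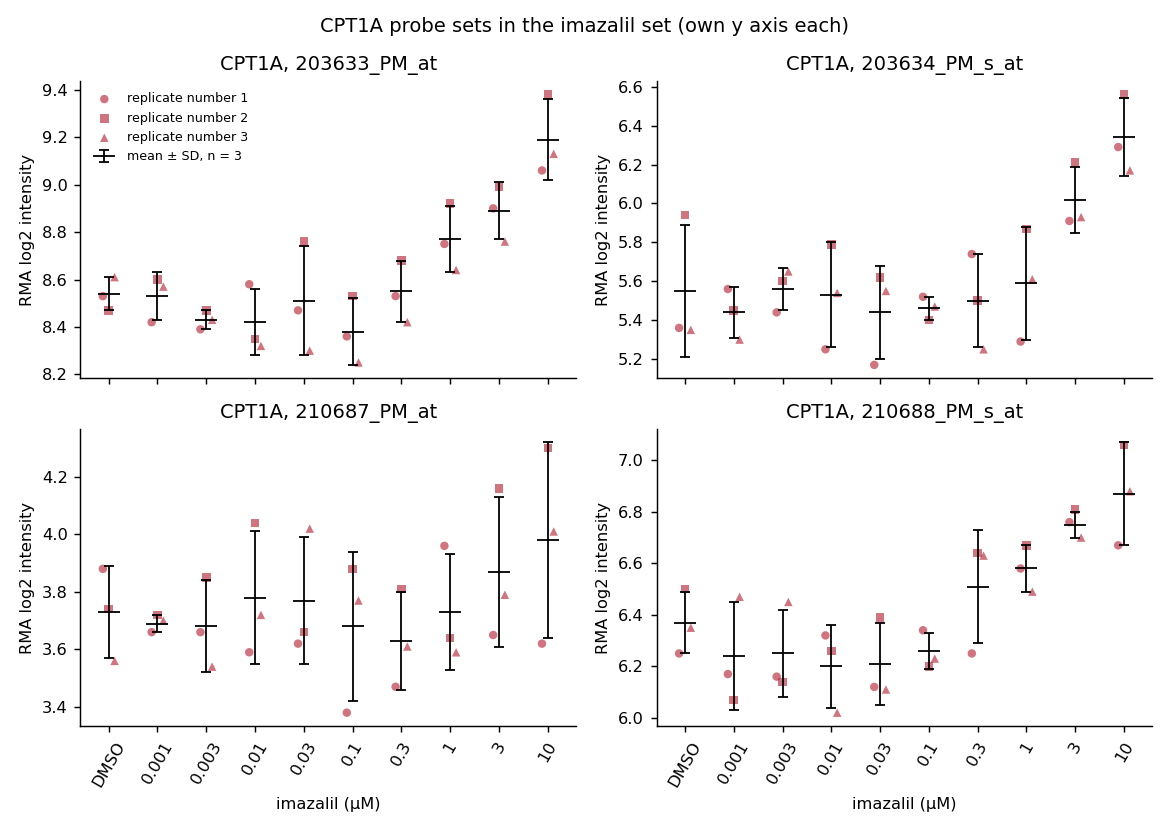
RMA log2 intensity of the 4 CPT1A probe sets at each imazalil concentration (µM), with 1 point per array, shaped by replicate number, and the mean ± SD of 3 arrays in black; each panel has its own y axis. The means of 203633_PM_at, 203634_PM_s_at and 210688_PM_s_at are highest at 10 µM (9.19, 6.34 and 6.87), and the arrays of 210687_PM_at overlap with DMSO at every concentration.

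The other CPT1A probe sets differed in how far they moved. The 203634_PM_s_at level was 5.36, 5.94 and 5.35 in DMSO, 5.91, 6.21 and 5.93 at 3 µM and 6.29, 6.56 and 6.17 at 10 µM. The 210688_PM_s_at level was 6.25, 6.50 and 6.35 in DMSO, 6.76, 6.81 and 6.70 at 3 µM and 6.67, 7.06 and 6.88 at 10 µM. In both, the 3 arrays at 10 µM lay above every DMSO array. The 210687_PM_at level was 3.88, 3.74 and 3.56 in DMSO and 3.62, 4.30 and 4.01 at 10 µM, and these groups overlapped. This is the least bright of the 4 CPT1A probe sets.

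At 10 µM imazalil the log2 change of CPT1A from DMSO was 0.66 (95% interval 0.43 to 0.88, 1.57-fold) on 203633_PM_at, 0.79 (0.45 to 1.13, 1.73-fold) on 203634_PM_s_at, 0.50 (0.25 to 0.76, 1.42-fold) on 210688_PM_s_at and 0.25 (-0.09 to 0.59) on 210687_PM_at. The last value moved with the arrays included and was 0.505 without replicate number 1, 0.095 without number 2 and 0.151 without number 3. Against the 8 lower imazalil concentrations in place of DMSO the same changes were 0.63, 0.77, 0.49 and 0.25. CPT1A had 3 probe sets and the other members 0 that lay above DMSO with no overlap of the 3 and 3 arrays, where 4.31% of all probe sets did, and since this contrast chose CPT1A the count is a description. Over 87 arrays, each centred on its set and replicate number, the 3 brighter CPT1A probe sets correlated with one another at 0.48 to 0.59 and with 210687_PM_at at -0.02 to 0.13. These arrays include those of 10 µM imazalil that chose CPT1A, so the correlations are a description.

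The other members changed at 10 µM imazalil by less than the 3 brighter CPT1A probe sets, in the contrast that chose CPT1A. Their 10 probe sets differed from DMSO by at most 0.27 on the log2 scale, with a median of 0.06 beside 0.004 over all probe sets. The largest of these was SLC25A20, the inner-membrane carrier, at 5.21, 5.43 and 5.50 in DMSO and 5.68, 5.49 and 5.77 at 10 µM, a change of 0.27 (95% interval 0.01 to 0.53) with 1 of the 3 treated arrays inside the DMSO range. CPT2, the inner-membrane transferase, was 7.19, 7.39 and 6.97 in DMSO and 7.06, 7.30 and 7.20 at 10 µM on 204263_PM_s_at. CRAT on 209522_PM_s_at changed by 0.13 (-0.08 to 0.34), CPT1C by 0.09 (-0.13 to 0.32), CROT on 204573_PM_at by 0.09 (-0.24 to 0.41) and the carnitine importer SLC22A5 by 0.03 (-0.25 to 0.32).

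**Figure D2:**
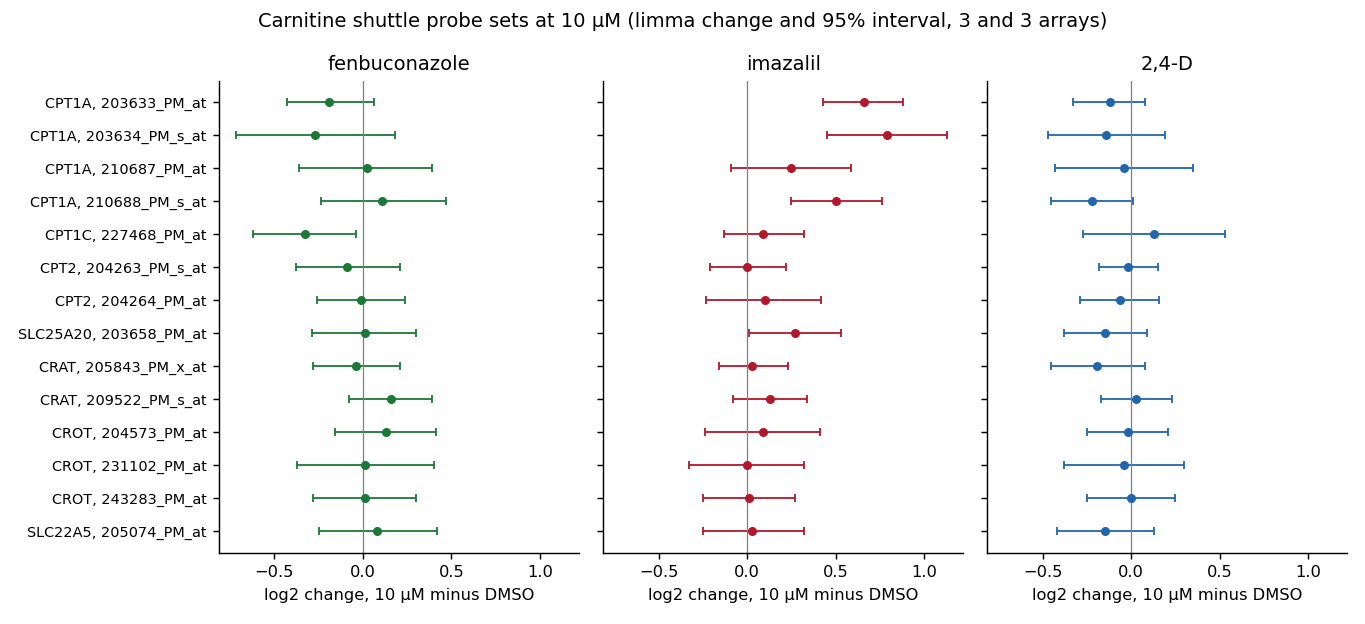
Log2 change of each of the 14 member probe sets at 10 µM against the DMSO arrays of the same set, in 1 panel per chemical, as limma estimates with 95% intervals from 3 and 3 arrays. In the imazalil panel, which holds the values that chose CPT1A, 3 CPT1A probe sets lie at 0.50 to 0.79, and in the other panels every member lies between -0.33 and 0.16.

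Below 10 µM the imazalil values were tested, with the levels of CPT1A at 1 and 3 µM already known from earlier results of these data. The slope of the log2 level per 10-fold rise in concentration from 0.001 to 3 µM was 0.105 ± 0.029 (SE, 24 arrays) for CPT1A on 203633_PM_at, 0.148 ± 0.028 on 210688_PM_s_at, 0.099 ± 0.037 on 203634_PM_s_at and 0.022 ± 0.032 on 210687_PM_at. The limma unadjusted p-values were 0.00107, 1.54e-05, 0.0132 and 0.487. After Benjamini-Hochberg adjustment over all probe sets 0 of the 14 member probe sets passed 0.05, where 0% of all probe sets passed, and the smallest adjusted p was 0.841. At an unadjusted p under 0.05 there were 4 member probe sets, 3 of CPT1A and that of SLC25A20, against 4.28% of all probe sets. The SLC25A20 slope was 0.058 ± 0.027 (unadjusted p = 0.0445, adjusted p = 1 by limma).

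The CPT1A slope on 203633_PM_at was 0.117, 0.136 and 0.063 within replicate numbers 1, 2 and 3, each over 8 arrays, and on 210688_PM_s_at it was 0.148, 0.208 and 0.089. On 203634_PM_s_at the slopes were 0.084, 0.133 and 0.08, and on 210687_PM_at they were 0.021, 0.038 and 0.008. The CPT1A levels at 1 and 3 µM were known beforehand, so the slopes by replicate number are a description. With 3 µM left out, the slope on 203633_PM_at was 0.064 (limma adjusted p = 1). In single contrasts with DMSO, CPT1A at 3 µM changed by 0.35 (95% interval 0.12 to 0.58) on that probe set. These contrasts use the DMSO arrays of the contrast that chose CPT1A, so the CPT1A values in them are a description. Over all 112 contrasts of members with DMSO at the 8 lower imazalil concentrations, 0 passed (0% over all probe sets). In those contrasts 5 had an unadjusted p under 0.05, 4 of CPT1A and 1 of CRAT, where 4.5% did over all probe sets. The 4 of CPT1A are likewise a description.

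With fenbuconazole, CPT1A on its brightest probe set had a lower mean at 10 µM than in DMSO, and the change did not pass the test. The 203633_PM_at level was 7.89, 7.92 and 7.80 in the DMSO arrays of the fenbuconazole set, 7.50, 7.98 and 7.64 at 3 µM and 7.57, 7.79 and 7.69 at 10 µM. The 10 µM arrays all lay just below the lowest DMSO array, and the change was -0.19 (95% interval -0.43 to 0.06, adjusted p = 0.789 by limma). Of the other probe sets 203634_PM_s_at changed by -0.27, 210687_PM_at by 0.02 and 210688_PM_s_at by 0.11. The slope over 9 concentrations was -0.027 ± 0.020 (SE) on 203633_PM_at, with an adjusted p of 1 by limma. On that probe set the DMSO mean (7.87) was the highest group mean of the set, and the 3 arrays at 1 µM also lay below every DMSO array. At 1 µM the share of all probe sets doing so was not computed.

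CPT1C, the brain form, gave the lowest member change at 10 µM fenbuconazole, while over all concentrations the lowest was that of CPT1A on 203634_PM_s_at at 0.01 µM (-0.35, 95% interval -0.80 to 0.10). Its level was 3.56, 3.74 and 3.42 in DMSO and 3.37, 3.21 and 3.15 at 10 µM, a change of -0.33 (95% interval -0.62 to -0.04, unadjusted p = 0.0288, adjusted p = 0.659 by limma). These groups did not overlap. CPT1C and CPT1A (203633_PM_at) were the 2 members below DMSO without overlap, where 5.76% of all probe sets were. CPT1C lay at the 61.6th percentile of all probe sets in that set, and its slope over 9 concentrations was -0.014 ± 0.025. Its DMSO mean (3.57) was the highest group mean of the set. All 3 CPT1C arrays also lay below every DMSO array at 0.1 µM and at 3 µM. Other members had all 3 arrays above every DMSO array in this set. These were CPT2 (204264_PM_at) at 0.1 and 0.3 µM, SLC22A5 at 0.3 µM, SLC25A20 at 0.003 µM and CRAT (209522_PM_s_at) at 0.01 µM. The share of all probe sets without overlap was not computed below 10 µM.

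Counts for fenbuconazole were low throughout. At 10 µM against DMSO 0 of 14 member probe sets passed an adjusted p of 0.05 (0% of all probe sets) and 1 had an unadjusted p under 0.05 (7% of all). In the trend over 9 concentrations 0 passed (0% of all) and 0 had an unadjusted p under 0.05 (4.3% of all). Against the 8 lower concentrations 0 passed (0.00366% of all, or 2 probe sets) and 0 had an unadjusted p under 0.05 (6.13% of all). In the 112 contrasts at 0.001 to 3 µM 0 passed (0.000229% of all) and 3, of CPT1C and CPT2, had an unadjusted p under 0.05 (6.53% of all).

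With 2,4-D, all 4 CPT1A probe sets had lower means at 10 µM than in DMSO, by 0.04 to 0.22 on the log2 scale, and 0 passed the test. These DMSO arrays are taken to be those of the imazalil set, which belong to the contrast that chose CPT1A. The CPT1A changes from DMSO are therefore a description. The DMSO mean was the highest group mean of the set on 203633_PM_at (8.6), 203634_PM_s_at (5.55) and 210688_PM_s_at (6.44). Against the 8 lower 2,4-D concentrations in place of DMSO, the changes at 10 µM on these probe sets were -0.03, 0.02 and -0.11. On the least bright CPT1A probe set that change was 0.09. The 203633_PM_at level was 8.58, 8.51 and 8.69 in DMSO, 8.54, 8.52 and 8.37 at 3 µM and 8.52, 8.69 and 8.22 at 10 µM. The 10 µM arrays overlapped with DMSO. The change at 10 µM was -0.12 (95% interval -0.33 to 0.08) and the slope over 9 concentrations was -0.001 ± 0.017 (SE). On 210688_PM_s_at the level was 6.35, 6.59 and 6.38 in DMSO and 6.34, 6.24 and 6.09 at 10 µM, a change of -0.22 (-0.45 to 0.01). That was the 1 member probe set below DMSO without overlap, where 3.8% of all probe sets were.

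The counts for 2,4-D were 0 of 14 passing at 10 µM against DMSO (0% of all probe sets), and the unadjusted p was under 0.05 in 0 of them (3.85% of all). The trend gave 0 passing (0% of all) and 0 at an unadjusted p under 0.05 (3.67% of all). Against the 8 lower concentrations 0 passed (0.00549% of all) and 0 had an unadjusted p under 0.05 (6.46% of all). In the 112 contrasts at 0.001 to 3 µM 0 passed (0% of all) and 3, of CPT1A, CROT and SLC25A20, had an unadjusted p under 0.05 (4.35% of all). That of CPT1A is a description, because the DMSO arrays are taken to be those of the imazalil set.

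**Figure D3:**
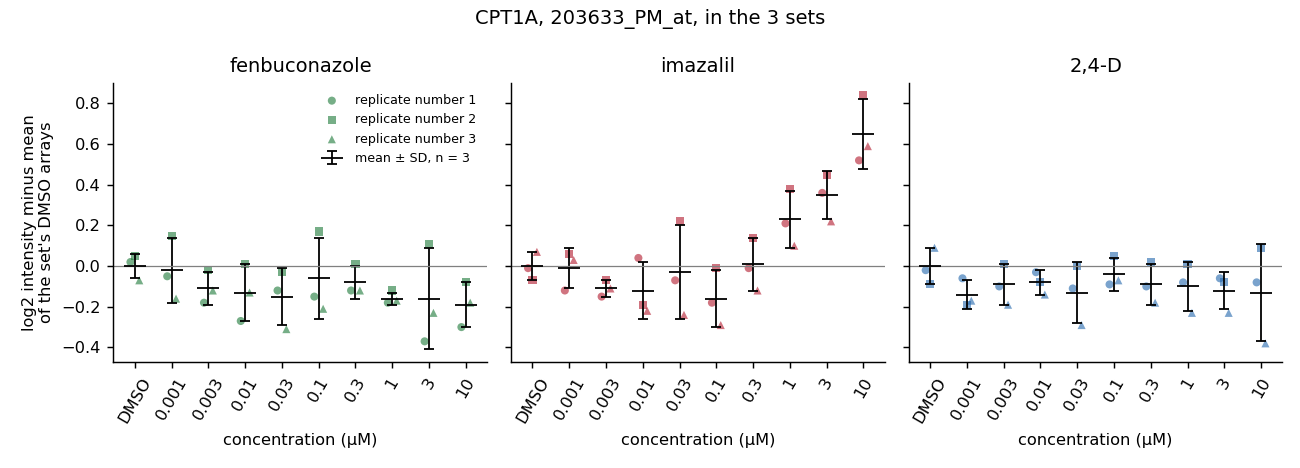
CPT1A (203633_PM_at) log2 intensity minus the mean of the 3 DMSO arrays of the same set, against concentration (µM) in the 3 sets, with 1 point per array and the mean ± SD of 3 arrays in black. The imazalil points lie above every DMSO array from 1 µM, with a mean change of 0.66 at 10 µM, while the fenbuconazole and 2,4-D means at 10 µM lie at -0.19 and -0.12.

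The chemicals were compared at matched concentrations, each as its change from its own DMSO arrays, in 1 fit over all 90 columns. At 3 µM the change of CPT1A on 203633_PM_at under fenbuconazole was lower than that under imazalil by a log2 difference of -0.51 (95% interval -0.82 to -0.20). The change under imazalil minus that under 2,4-D was 0.47 (0.16 to 0.78). Both values are a description, because they use the imazalil DMSO arrays of the contrast that chose CPT1A. Fenbuconazole minus 2,4-D at 10 µM was -0.06 (-0.37 to 0.24), so a difference of up to 0.37 stays within the interval. This value is a description as well, since the 2,4-D set is taken to share those DMSO arrays. None of these 3 comparisons had a member probe set that passed (0% of all probe sets in each).

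At an unadjusted p under 0.05 the fenbuconazole and imazalil difference at 3 µM held 3 member probe sets, all of CPT1A (3.87% of all probe sets), and the imazalil and 2,4-D difference held 3, all of CPT1A (0.491% of all). Because of those DMSO arrays, these CPT1A counts are a description as well. The imazalil and 2,4-D contrasts share their DMSO arrays, and the joint fit treats the shared arrays as separate columns. It thus counts their variance in both contrasts, so the intervals of the imazalil and 2,4-D differences are too wide and their p-values too large. The fenbuconazole and 2,4-D difference at 10 µM held 1, CPT1C at -0.46 (-0.90 to -0.01), where 5.06% of all probe sets did. At 10 µM, as a description, fenbuconazole minus imazalil was -0.84 (-1.15 to -0.53) and imazalil minus 2,4-D was 0.78 (0.47 to 1.08) for CPT1A on 203633_PM_at. For SLC25A20 the same differences were -0.26 (-0.64 to 0.11) and 0.42 (0.04 to 0.79).

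Member probe sets passed only in tests of replicate number, among all the comparisons tested. In the fenbuconazole set CPT1A on 203634_PM_s_at had means of 4.44 ± 0.34, 4.88 ± 0.14 and 4.70 ± 0.12 (SD, 10 arrays each) in replicate numbers 1, 2 and 3, with an adjusted p of 0.0299 (limma F test), and the call was lost without replicate number 1 (smallest adjusted p among members 0.125) and without number 2 (0.744). It was 1 of 14 member probe sets, where 0.837% of all probe sets passed. In the 2,4-D set CROT, the peroxisomal transferase, had means of 5.48 ± 0.12, 5.28 ± 0.11 and 5.32 ± 0.12 on 204573_PM_at with an adjusted p of 0.0303 (limma F test), again 1 of 14 where 3.63% of all passed. The CROT call was lost whichever replicate number was left out, and also under a second quantile normalization and under eBayes with trend and robust settings. Without number 1 or 2 no member passed (smallest adjusted p 0.117 and 0.135), and without number 3 CPT1A on 203634_PM_s_at passed in its place (0.0398). In the imazalil set 0 of 14 passed, where 2.13% of all did.

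**Figure D4:**
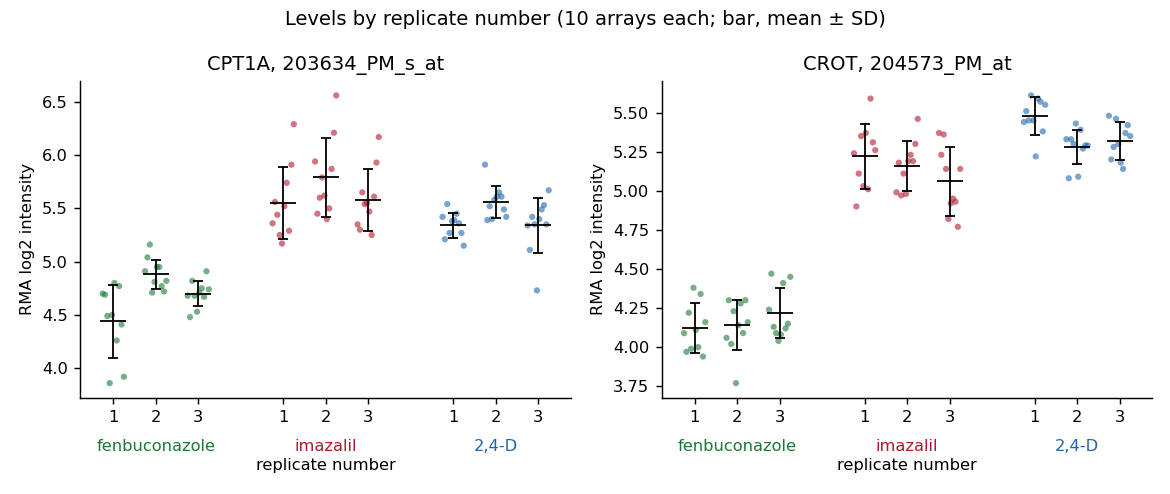
RMA log2 intensity by replicate number in each chemical's set for CPT1A (203634_PM_s_at) and CROT (204573_PM_at), with 1 point per array (10 per replicate number) and the mean ± SD in black. CPT1A in the fenbuconazole set averages 4.44, 4.88 and 4.70, and CROT in the 2,4-D set averages 5.48, 5.28 and 5.32; levels are comparable only within a set.

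Genes around the shuttle were read from 8 companion lists at 1 probe set per gene, 74 of 83 genes being measured. In the fenbuconazole, 2,4-D and imazalil trends 0 of the 74 passed (0% of all probe sets), and their median slopes were 0.002, -0.003 and -0.004 beside -0.002, 0 and -0.001 over all genes. Malonyl-CoA metabolism, which sets the brake on CPT1, had 10 of 10 genes measured, 2 with slopes above 0 and 8 below in the imazalil trend. At 10 µM imazalil, as a description, 5 of the 10 were higher and 5 lower than in DMSO, with a median change of 0.008. There ACACB (the mitochondrial acetyl-CoA carboxylase) changed by -0.40 ± 0.12 (SE) and MLYCD, which breaks malonyl-CoA down, by 0.10 ± 0.11. FASN, which uses malonyl-CoA to build fatty acids, changed by -0.19 ± 0.09 at 10 µM 2,4-D (adjusted p = 1 by limma).

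Among other genes known to respond to fatty acids through PPAR, 0 passed in the 3 trends, in which 0% of all probe sets passed. Of the 12 measured, 8 had slopes above 0 and 4 below in the imazalil trend, with a median of 0.020. ANGPTL4, a secreted inhibitor of lipoprotein lipase, had a slope of 0.061 ± 0.033 (adjusted p = 1 by limma), PLIN2, a lipid droplet coat protein, -0.007 ± 0.021, and PDK4, a kinase that turns off pyruvate dehydrogenase, -0.026 ± 0.023. SLC25A34, a mitochondrial carrier, had a slope of 0.048 ± 0.021 with 2,4-D. Of 9 measured fatty acid receptors and coactivators, 6 were higher and 3 lower at 10 µM imazalil, with a median change of 0.025. PPARA itself was among the lower ones at -0.33 ± 0.15 (SE), as a description, with a slope to 3 µM of -0.004 ± 0.037. PPARG had a slope of 0.049 ± 0.020 with fenbuconazole (adjusted p = 1 by limma).

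The oxidation enzymes and carnitine supply gave 0 calls in the 3 trends, as did all probe sets (0%). Of 18 measured mitochondrial beta-oxidation genes, 8 had slopes above 0 and 10 below in the imazalil trend. ACADL, long-chain acyl-CoA dehydrogenase, had slopes of -0.059 ± 0.023 with fenbuconazole and 0.047 ± 0.016 with 2,4-D. ACOX2, a peroxisomal oxidase of branched chains, had a slope of -0.063 ± 0.028 with fenbuconazole. Among carnitine genes, BBOX1, the last enzyme of carnitine synthesis, had slopes between -0.026 and 0.004 in the 3 sets, and the transporter SLC22A4 between -0.041 and 0.011. SLC27A2, a fatty acid transporter with acyl-CoA synthetase activity, had a slope of 0.043 ± 0.022 with fenbuconazole.

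The genes whose pattern was most like that of CPT1A were taken over 87 arrays and 12409 other genes, from 203633_PM_at centred on set and replicate number. The highest correlations were with S1PR3 (0.55), CAT (0.49), ENDOD1 (0.49), RBM15 (0.48) and JTB (0.47), and the lowest with TXNIP (-0.46), TSR3 (-0.40), COX8A (-0.39), SGPL1 (-0.38) and LSM8 (-0.38). The arrays share their set and chemical, and without the 3 arrays of 10 µM imazalil the value was 0.46 for S1PR3, 0.35 for CAT and -0.22 for TXNIP. Among the members, SLC25A20 and CROT correlated with CPT1A at 0.32 each, CRAT at 0.15, CPT1C at 0.08, SLC22A5 at 0.01 and CPT2 at -0.01. Without the 10 µM imazalil arrays these values were 0.20 for SLC25A20, 0.27 for CROT, 0.04 for CRAT, 0.05 for CPT1C, -0.06 for SLC22A5 and -0.07 for CPT2.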

How the data were processed

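The deposited values were log2 intensities from Affymetrix HT HG-U133+ PM arrays, which the authors normalized by RMA in Partek separately for each chemical's 30 columns; tool versions are not given in the sources used here. Array medians were 2.76 to 2.83 (fenbuconazole), 3.34 to 3.39 (imazalil) and 3.40 to 3.46 (2,4-D). No raw files were used, and the number of arrays limits the precision. After 102 control probe sets were removed, 54613 were tested, of which 40914 carried 1 gene symbol, 864 several and 12835 none in GEO's platform annotation. Comparisons used limma 3.58.1 (R 4.3.3) with Benjamini-Hochberg adjustment over all probe sets; the code was tested on simulated data. Alternatives were a replicate block, filters, normalizations, eBayes and array-weight settings, and leaving out replicates. Members and lists were chosen with earlier results of these data known. Named companion genes were, per list, the 2 with the smallest trend p, plus PDK4, ANGPTL4, PLIN2, MLYCD, ACACB and PPARA. The methods describe replicates as independent experiments, which the labels do not state. DMSO columns of different sets were counted as 1 array above a centred correlation of 0.5. Promoters are from RefSeq.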

Additional observations from a re-analysis of the deposited data

Results flagged for a closer look

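At 10 µM all 3 imazalil arrays lay above every DMSO array and all 3 fenbuconazole arrays below every DMSO array for CPT1A on 203633_PM_at, a log2 difference of -0.84 (fenbuconazole minus imazalil). On 210688_PM_s_at all 3 imazalil arrays lay above and all 3 2,4-D arrays below, a difference of 0.72 (imazalil minus 2,4-D). Both involve the values that chose CPT1A, so the difference was not tested. The DMSO mean was the highest group mean of the fenbuconazole set on 203633_PM_at and of the 2,4-D set on 210688_PM_s_at.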

How the results depend on the processing

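With the replicate block the count of member calls was 0 in every treatment comparison, and the block changed no call. After group means were subtracted, arrays with the same number correlated at 0.042, 0.0689 and 0.0781 on average in the fenbuconazole, imazalil and 2,4-D sets (lowest -0.145), and 24, 28 and 30 of 30 arrays were closest to one of their own number. The CPT1A change at 10 µM imazalil on 203633_PM_at was 0.655 with the block and without it, and 0.528 to 0.722 with 1 replicate number left out. Its same-numbered pairs, an alternative chosen after seeing the data, gave 0.535, 0.909 and 0.521. On 210687_PM_at pair 1 gave -0.259. In the treatment comparisons 0 members passed under all alternatives run. For the imazalil trend the smallest limma adjusted p among members, 0.841 in the main fit, moved with the setting. It was 0.119 with eBayes trend and robust settings, 0.17 without replicate number 3 and 0.897 with equal array medians. It was higher still with 1 probe set per gene and with 3 µM left out, the latter an alternative chosen after seeing the data. For replicate number in the fenbuconazole set, 1 member probe set became 2 with dim probe sets left out, with a second quantile normalization, with eBayes trend and robust settings and with array weights, and 0 to 1 with a replicate number left out. In the 2,4-D set, 1 became 4 without dim probe sets, 2 with 1 probe set per gene, 2 with eBayes trend and robust settings and 0 with a second quantile normalization, and 0 to 1 with a replicate number left out. CROT was not among the calls with the eBayes settings (CPT1A and CPT1C) or without replicate number 3 (CPT1A). In the imazalil set, 0 became 1 with eBayes trend and robust settings. The causes were not tested. With 3 arrays per group, the 95% intervals of the member changes at 10 µM were 0.33 to 0.9 wide on the log2 scale.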
